A study of Mus musculus x Mus spretus with 8 samples.

Results

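The 35 genes described here are ligands, receptors, intracellular components and targets of the Wnt pathway, chosen by name from the 49670 genes of a count table, and all 35 were found in it. They comprise 10 feedback and inhibitory targets, 4 other targets, 4 secreted inhibitors, 4 Wnt ligands with the ligand carrier Wls, 6 receptors and coreceptors, and 6 intracellular components. No measured value entered the choice of genes by its rule, although earlier results of the same libraries were known when the list was drawn up. The 8 RNA-seq libraries came from Patski cells, a cultured line of fibroblasts taken from a female hybrid of a C57BL/6 mouse and a SPRET/EiJ mouse (Mus spretus). The groups were lines labelled homozygous null for Stc1 (a secreted stanniocalcin), for Pygo1 (a nuclear cofactor of beta-catenin) or for Rlim (an X-linked ubiquitin ligase), and wild type (WT), each with 2 libraries. All of them were grown in the same serum-containing medium, with no treatment and no added Wnt protein named in the labels. The design text gives a pair of independent mutants for each targeted gene, so the libraries of a mutant label can be different clones, whereas it does not say whether the WT libraries came from separate cultures. Reads that cover parental differences were also counted by genome, and whether genome 1 is C57BL/6 or SPRET/EiJ is not stated in the labels.

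In canonical Wnt signalling, a secreted Wnt protein binds a Frizzled receptor and the coreceptor LRP5 or LRP6, which recruits Dishevelled and Axin and halts the destruction of beta-catenin by the complex of Axin, APC and GSK3. Beta-catenin then joins TCF/LEF factors, with BCL9 and Pygopus proteins, at target genes. Several of those targets act against the pathway: Axin2 rebuilds the destruction complex, Nkd1 and Nkd2 bind Dishevelled, Znrf3 and Rnf43 remove Frizzled from the membrane, Notum strips the lipid from Wnt proteins, and Apcdd1 binds Wnt and LRP proteins at the cell surface. In fibroblasts Wnt ligands are known to act on proliferation and on matrix genes.

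The total count ran from 73128996 to 81500061 reads per library, and 50.6 to 52.6% of the counts carried a genome. The RNA of the targeted genes did not separate the labels, so groups are called by their labels throughout: Stc1 RNA, as CPM (reads scaled to library size), stood at 3.67 and 68.4 under the Stc1-KO label against 3.84 and 3.15 in WT. Pygo1 had 2.50 and 0.674 CPM under the Pygo1-KO label against 2.49 and 2.44 in WT, and Rlim had 71.9 and 64.2 CPM under the Rlim-KO label against 57.2 and 51.4 in WT. A frameshift can leave RNA in place, and gene counts do not show it. Of 11 fibroblast markers 5 were under 1 CPM in every library (Col1a2, Col3a1, Lum, Thy1 and Pdgfrb), while Vim stood at 833 to 1279 CPM, and the summed fibroblast markers, Vim included, spanned 1144 to 1670 CPM. Summed epithelial markers spanned 33.0 to 71.2 CPM, leukocyte and macrophage markers 85.0 to 112 CPM and neuronal markers 9.77 to 28.9 CPM. Replicate 2 of the Stc1-KO label stood apart from its partner: 19.3% of the 17839 genes tested differed over 2-fold within that pair, against 9.77% in the Pygo1-KO pair and 2.34% in the Rlim-KO pair. In the WT pair 1.33% were over 2-fold higher and 1.67% over 2-fold lower in replicate 2. Summed endothelial markers reached 101 CPM in that library against 1.58 to 8.01 CPM in the other 7, nearly all of it Cdh5, with 4 of the 6 markers under 1 CPM everywhere. The mitochondrial share of its counts was 4.64%, against 7.87% in its partner and 6.12 to 8.18% in the other libraries. Values without it are given beside the main differences that include it. A fit with 1 Stc1-KO library takes its spread from the other groups, and in Stc1-KO against WT such fits called 1217 genes without replicate 2 and 4516 without replicate 1, against 103 with both, so only the size of a difference is taken from them. Single markers of other cell types also moved: Cd68, a macrophage marker, had 7.61 and 6.52 CPM under the Pygo1-KO label against 1.81 and 2.39 in WT (edgeR adjusted p = 0.0169). Pecam1, an endothelial marker, had 2.27 and 2.26 CPM under Rlim-KO against 0.0260 and 0.163 in WT (adjusted p = 0.0293), and S100a4, on the fibroblast list, had 1.14 and 1.12 CPM under Rlim-KO against 4.81 and 6.44 in WT (adjusted p = 0.0485). No other marker on their lists passed by edgeR under the same label. Under Pygo1-KO the log2 differences of Csf1r, Cd14 and Ptprc, on the list of Cd68, were -0.53, 0.08 and 0.22, and none passed. Under Rlim-KO 5 of 8 fibroblast markers tested were above 0, among them Pdgfra at 1.85 and Pdgfrb at 1.97, and S100a4 alone passed. Cdh5, the other endothelial marker tested, was also above 0 under Rlim-KO, at 1.85, and did not pass. Of the 8 fibroblast markers tested under Pygo1-KO, 7 were above 0 and 1 below, with a median log2 difference of 1.27. None of them passed by edgeR. DESeq2, an alternative tool, called 3 of them higher and 1 lower, and 9.96% of all genes to which it gave an adjusted p. The part of these markers and of the Stc1-KO library in the results was not tested. In bulk RNA, more cells expressing a gene and more RNA per cell cannot be told apart.

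Of the 35 genes, 32 passed the filter on low counts (edgeR filterByExpr). Dkk1, a secreted antagonist that binds LRP coreceptors and a common feedback target, had 0 reads in all 8 libraries. Sp5, a zinc-finger repressor induced by Wnt in many tissues, had 1, 1 and 2 reads in replicate 1 of the Stc1-KO, Pygo1-KO and Rlim-KO labels and 0 reads elsewhere. Dkk2, another LRP-binding antagonist, had 2 reads in Pygo1-KO replicate 1, 3 reads in Rlim-KO replicate 1 and 0 elsewhere. A count of 0 allows up to 3 reads, which is 0.0376 to 0.0416 CPM at these depths. Other members that passed the filter stood near that limit in WT: Ascl2 had 3 and 2 reads, Sfrp2 13 and 2, Wnt9b 8 and 9, Lgr5 5 and 11, and Notum 17 and 22.

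In WT cells the machinery that receives Wnt was well expressed and most of the feedback targets were not. Levels between genes are compared as CPM per kb of annotated exon. Wnt7b was the most abundant member at 159 CPM per kb, followed by the cell-cycle regulator Ccnd1 at 76.9, the Dishevelled gene Dvl1 at 41.1 and the scaffold Axin1 at 38.2 CPM per kb. The ligand Wnt4 stood at 24.1 CPM per kb, Wls, which carries Wnt proteins to the cell surface, at 11.3 and Wnt5a, a ligand best known for beta-catenin-independent signalling, at 3.64. The 6 receptors and coreceptors lay between 4.07 (Lgr4, a receptor for R-spondins) and 24.5 CPM per kb (Lrp5). Among the feedback targets Znrf3 stood at 6.41 CPM per kb, and the rest were lower: Apcdd1 at 1.24, Nkd1 at 0.898, Axin2 at 0.666, Rnf43 at 0.623, Nkd2 at 0.218, Notum at 0.103 and Lgr5, an R-spondin receptor and stem-cell marker, at 0.00989.

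**Figure D1:**
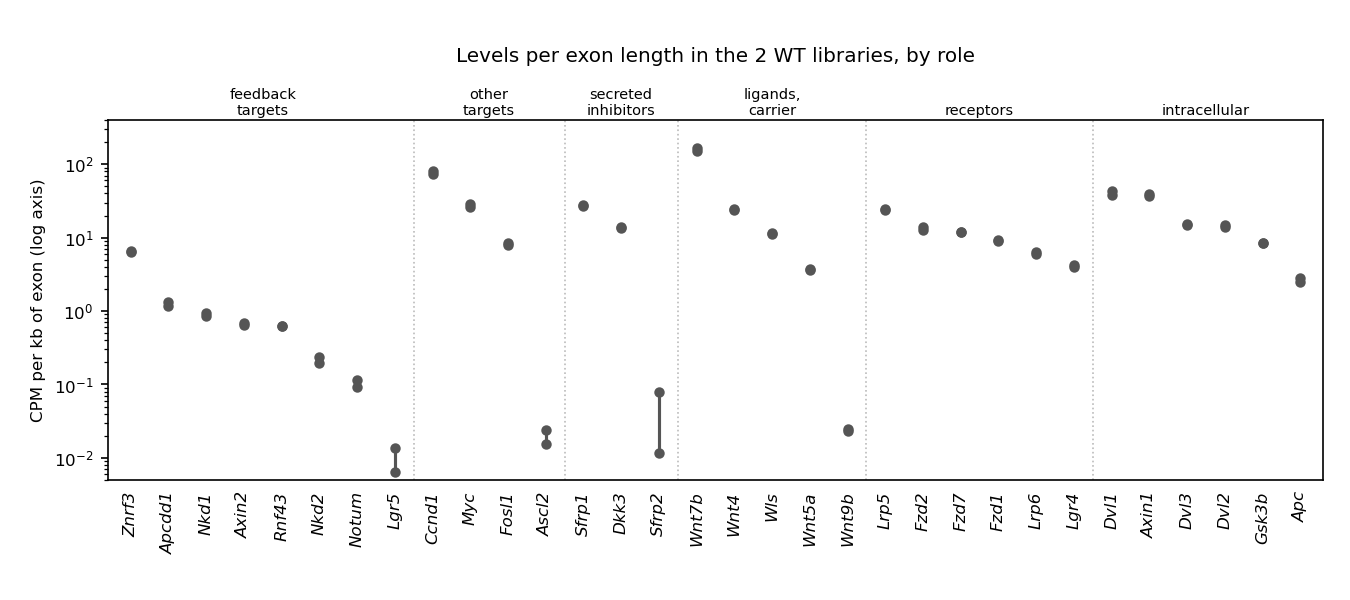
Levels of the 32 members that passed the filter, in CPM per kb of exon on a log axis, with the WT libraries as joined points and genes ordered within each role. Wnt7b tops the plot at 159 CPM per kb, the receptors and intracellular genes sit between 2.67 and 41.1, and 7 of the 8 feedback targets sit at or under 1.24.

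The spread between libraries differed by role. Dividing the highest library by the lowest gave a median range of 9.37-fold over the 8 feedback targets tested, against 1.43-fold over the 6 receptors, 1.53-fold over the 6 intracellular components and 2.58-fold over the 5 ligand genes. It was 148-fold over the 3 secreted inhibitors, which is the range of Sfrp1, and 3.08-fold over the 4 other targets. The difference between roles was not tested. The ratio also widens by counting error where reads are few, and the roles differ in depth. Lgr5 had 4 to 78 reads and Sfrp2 0 to 13, while Axin2 and Nkd1 had 284 or more and each receptor 1201 or more. The part of counting error in these ranges was not tested. Over all genes tested the median range was 1.92-fold. Without Stc1-KO replicate 2 the medians were 3.63-fold for the feedback targets, 1.33-fold for the receptors, 1.39-fold for the intracellular components, 1.99-fold for the ligand genes, 32.2-fold for the secreted inhibitors, 2.67-fold for the other targets and 1.73-fold for all genes, a recount chosen after the data were seen. Of the 8 feedback targets, 6 were highest in Stc1-KO replicate 2, where 12 of the 32 members and 22.9% of all genes tested had their highest value.

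Axin2, the target most widely used as a readout of the pathway (ENSMUSG00000000142, chr11:108920349-108950783, GRCm38), had 7.78 and 48.7 CPM under the Stc1-KO label, 14.05 and 14.6 under Pygo1-KO, 6.88 and 7.20 under Rlim-KO, and 3.78 and 3.56 in WT. All 6 mutant-labelled libraries lay above both WT libraries, and Stc1-KO replicate 2 lay far above the rest. The fitted log2 differences from WT were 2.95 ± 0.74 for Stc1-KO, 1.96 ± 0.71 for Pygo1-KO and 0.94 ± 0.70 for Rlim-KO (SE), and none passed edgeR's quasi-likelihood test over all genes (Benjamini-Hochberg adjusted p = 0.149, 0.189 and 0.536 in that order). Without Stc1-KO replicate 2 the Stc1-KO difference of Axin2 was 1.09, and without replicate 1 it was 3.73.

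Nkd1 had 6.18 and 36.8 CPM under the Stc1-KO label, 19.5 and 7.86 under Pygo1-KO, 6.03 and 5.74 under Rlim-KO, and 3.84 and 4.35 in WT. It too was above WT in all 6 mutant-labelled libraries, but the libraries of the Stc1-KO and Pygo1-KO labels each disagreed by more than 2-fold. Its log2 differences were 2.39 ± 0.79, 1.74 ± 0.78 and 0.52 ± 0.76 for Stc1-KO, Pygo1-KO and Rlim-KO, with adjusted p of 0.223, 0.264 and 0.773 in edgeR. Leaving out Stc1-KO replicate 2 took the first of these to 0.59, and leaving out Pygo1-KO replicate 1 took the second to 0.94.

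Rnf43, a membrane ubiquitin ligase that removes Frizzled, had 8.44 and 9.40 CPM under the Stc1-KO label, 5.79 and 4.68 under Pygo1-KO, 6.88 and 5.95 under Rlim-KO, and 4.06 and 4.11 in WT. Here the Stc1-KO libraries were close to each other and above every other library, at a log2 difference of 1.13 ± 0.19 from WT that missed the threshold (edgeR adjusted p = 0.0666). Its size was 1.05 without replicate 2 and 1.201 without replicate 1. Znrf3, its relative, had 50.7 and 43.1 CPM under the Stc1-KO label, 41.8 and 42.5 under Pygo1-KO, 42.3 and 43.2 under Rlim-KO, and 49.6 and 51.7 in WT. Znrf3 was thus lower than WT in both Pygo1-KO and both Rlim-KO libraries, by 0.27 ± 0.12 and 0.24 ± 0.12 on the log2 scale, and neither difference passed (edgeR adjusted p = 0.260 and 0.335).

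Apcdd1 had 8.95 and 35.9 CPM under the Stc1-KO label, 18.1 and 15.95 under Pygo1-KO, 12.6 and 12.8 under Rlim-KO, and 14.99 and 16.9 in WT. The Stc1-KO libraries fell on either side of WT: without replicate 2 the edgeR log2 difference was -0.83, and without replicate 1 it was 1.17. Nkd2 behaved likewise, with 0.693 and 3.34 CPM under the Stc1-KO label, 0.365 and 0.757 under Pygo1-KO, 0.551 and 0.810 under Rlim-KO, and 0.951 and 1.15 in WT. Lgr5 had 0.263 and 1.04 CPM under the Stc1-KO label (19 and 78 reads), 0.0503 and 0.110 under Pygo1-KO, 0.210 and 0.180 under Rlim-KO, and 0.0651 and 0.138 in WT. Without Stc1-KO replicate 2 the log2 difference of Stc1-KO from WT was -0.60 for Nkd2 and 1.36 for Lgr5, against 0.94 ± 0.70 and 2.66 ± 0.77 with it. Without replicate 1 it was 1.67 for Nkd2 and 3.33 for Lgr5. None of these 3 genes passed in any of the 6 comparisons with all libraries in the fit.

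Notum was the feedback target that passed. Notum encodes a secreted carboxylesterase (ENSMUSG00000042988, chr11:120653788-120661175, GRCm38) and had 2.09 and 1.22 CPM under the Pygo1-KO label, 2.74 and 1.81 under Rlim-KO, 0.790 and 1.198 under Stc1-KO, and 0.221 and 0.276 in WT. Each of the 6 mutant-labelled libraries was above WT at low absolute counts, from 57 to 209 reads against 17 and 22 in WT. Notum rose 6.63-fold under the Pygo1-KO label (log2 2.73 ± 0.42, adjusted p = 0.0323) and 9.10-fold under Rlim-KO (log2 3.19 ± 0.43, adjusted p = 0.0282) by edgeR's quasi-likelihood test. The Stc1-KO difference of 1.99 ± 0.42 did not pass (adjusted p = 0.104) and was 1.66 without Stc1-KO replicate 2. Both Notum calls were lost without WT replicate 1 (adjusted p = 0.324 and 0.326) or WT replicate 2 (0.294 and 0.316), and without either Rlim-KO library. A lone WT library is assumed to vary like the other groups, and those fits called 3 to 8 genes in all in each comparison with WT. The Pygo1-KO call was also lost without Pygo1-KO replicate 1 (log2 2.29, adjusted p = 0.0724).

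**Figure D2:**
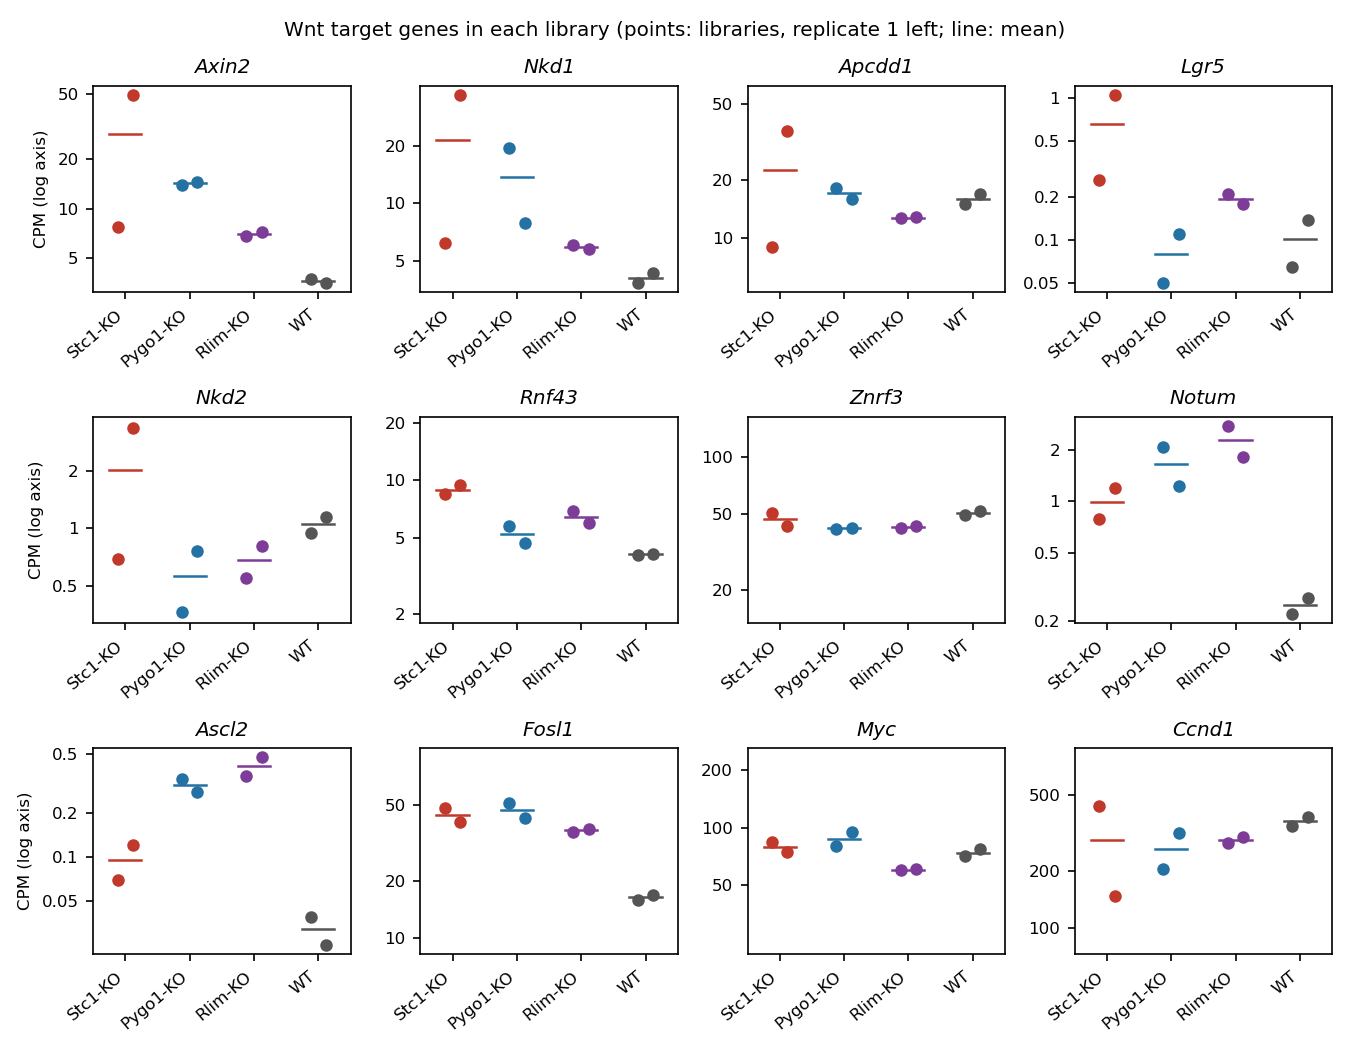
CPM of 12 target genes in each library on log axes that differ between panels; points are libraries with replicate 1 on the left, and lines are group means of 2. Axin2, Nkd1, Apcdd1, Nkd2 and Lgr5 have their highest point in Stc1-KO replicate 2, whereas Fosl1 is above 36 CPM in all 6 mutant-labelled libraries and at 15.95 and 16.98 CPM in WT.

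The Stc1-KO pair differed over 2-fold for more of the members than the other pairs did, as it did over all genes. On log2 CPM with a prior count of 2, replicate 2 exceeded replicate 1 over 2-fold for 5 of the 8 feedback targets, against 8.96% of all genes tested in that direction: Axin2 at 6.24-fold, Nkd1 at 5.94-fold, Nkd2 at 4.68-fold, Apcdd1 at 4.01-fold and Lgr5 at 3.68-fold. Notum at 1.501-fold, Rnf43 at 1.11-fold and Znrf3 at 0.851-fold stayed within 2-fold. Of the 32 members, 9 differed over 2-fold in one direction or the other in the Stc1-KO pair, against 5 in the Pygo1-KO pair, 1 in the Rlim-KO pair and 1 in the WT pair. Over all genes tested it was 19.3% in the Stc1-KO pair, 9.77% in the Pygo1-KO pair and 2.34% in the Rlim-KO pair. For the WT pair, 1.33% of all genes were over 2-fold higher and 1.67% over 2-fold lower in replicate 2. Ccnd1 (0.341-fold), Wnt9b (0.321-fold, on 10 and 2 reads) and Sfrp1 (0.219-fold) were the 3 lower in Stc1-KO replicate 2. Among other pathway genes, Lef1, a nuclear partner of beta-catenin and itself a target, had 6.30 and 24.4 CPM in the Stc1-KO pair against 6.66 and 7.34 in WT. Rspo3, a secreted R-spondin that amplifies Wnt signalling through LGR receptors, had 0.512 and 4.63 CPM in that pair against 0.0130 and 0.0501 in WT. The rise of Rspo3 was not particular to that pair. Rspo3 had 69 and 61 reads under Rlim-KO and 76 and 5 under Pygo1-KO, against 1 and 4 in WT, and edgeR did not call it under those labels. Neither Lef1 nor Rspo3 passed edgeR's test in Stc1-KO against WT (adjusted p = 0.370 for Lef1 and 0.162 for Rspo3), and both are named here after their values were seen. DESeq2 called Rspo3 higher under Stc1-KO, Pygo1-KO and Rlim-KO, where it called 6.13%, 9.96% and 8.28% of all genes to which it gave an adjusted p. It called Lef1 under none of them. The log2 difference of Lef1 was 1.13 with both Stc1-KO libraries and -0.15 without replicate 2, and Rspo3 in replicate 1, at 0.512 CPM, lay above both WT libraries.

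**Figure D3:**
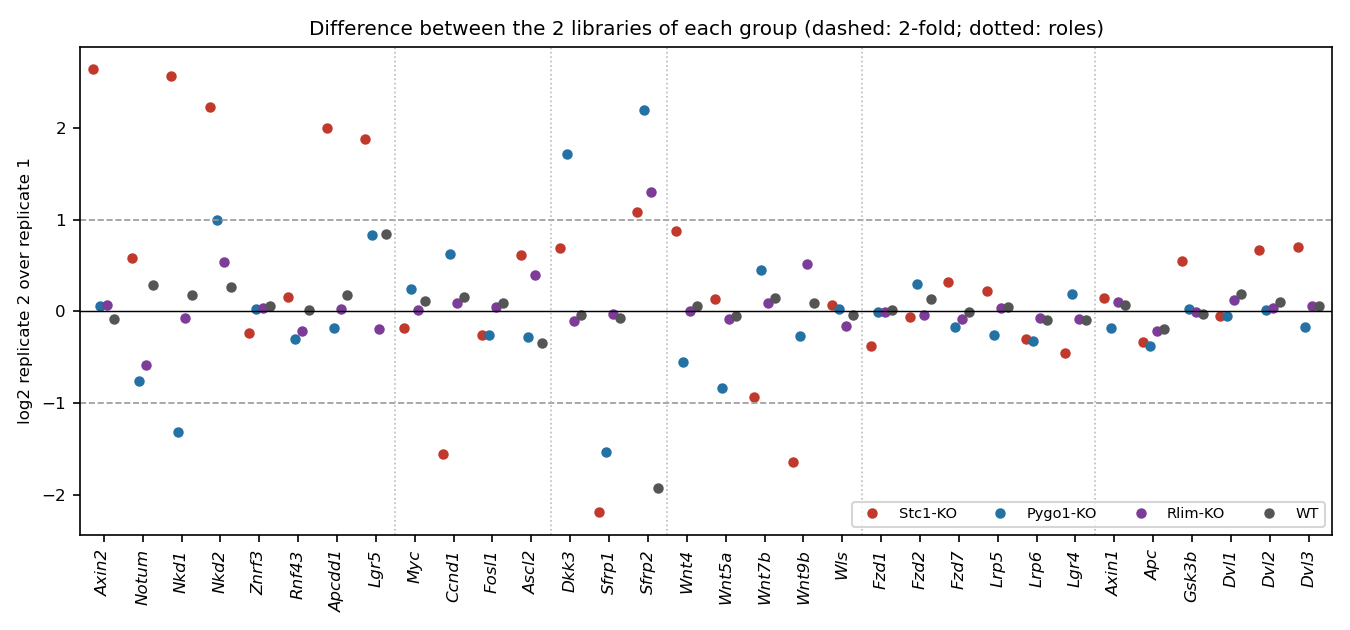
Difference between the 2 libraries of each group for the 32 members tested, as log2 of replicate 2 over replicate 1 with a prior count of 2; dashed lines mark 2-fold and dotted lines separate roles. The red Stc1-KO points of Axin2, Nkd1, Nkd2, Apcdd1 and Lgr5 lie between 1.88 and 2.64, and the WT points lie between -0.35 and 0.84 except that of Sfrp2 at -1.93, which rests on 13 and 2 reads.

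Fosl1 was the member that passed against WT under every mutant label. Fosl1 encodes FRA-1, an AP-1 transcription factor reported as a Wnt target and also induced by growth factor signalling (ENSMUSG00000024912, chr19:5447547-5455946, GRCm38). It had 48.3 and 40.5 CPM under the Stc1-KO label, 51.5 and 42.9 under Pygo1-KO, 36.2 and 37.5 under Rlim-KO, and 15.95 and 16.98 in WT. No mutant-labelled library came near the WT pair. Fosl1 rose 2.70-fold under Stc1-KO (log2 1.43 ± 0.15, edgeR adjusted p = 0.0161), 2.87-fold under Pygo1-KO (1.52 ± 0.15, adjusted p = 0.00873) and 2.24-fold under Rlim-KO (1.16 ± 0.14, adjusted p = 0.0245). These comparisons share their WT libraries: without WT replicate 1 the adjusted p values were 0.276, 0.175 and 0.298, and without WT replicate 2 they were 0.316, 0.171 and 0.291. The Stc1-KO call was also lost without either Rlim-KO library (0.0922 and 0.0928), and the Rlim-KO call without either of its own (0.259 and 0.287), while the Stc1-KO difference was 1.55 without Stc1-KO replicate 2. Fosl1 shares 1163 exon bases with Ccdc85b on the opposite strand, and the sources used here do not give the strand setting of the counting, so some reads may belong to either gene. Ccdc85b had 37.9 and 51.8 CPM under the Stc1-KO label, 54.0 and 60.0 under Pygo1-KO, 40.3 and 47.1 under Rlim-KO, and 27.7 and 31.6 in WT, and did not pass in any of these comparisons (adjusted p = 0.196, 0.0517 and 0.173).

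Ascl2, a helix-loop-helix factor and Wnt target of intestinal stem cells (ENSMUSG00000009248, chr7:142966829-142969264, GRCm38), passed from a level near the counting limit. It had 27 and 20 reads under the Pygo1-KO label, 27 and 37 under Rlim-KO, 5 and 9 under Stc1-KO, and 3 and 2 in WT. The Pygo1-KO and Rlim-KO libraries did not overlap with WT, and neither did those labelled Stc1-KO. By counts scaled to library size, the ratio to WT was 9.68 (95% exact interval 3.87 to 31.2) under Pygo1-KO, 13.0 (5.29 to 41.4) under Rlim-KO and 2.98 (1.01 to 10.6) under Stc1-KO, intervals that cover counting error only. Ascl2 passed edgeR's test under Pygo1-KO (adjusted p = 0.0383) and Rlim-KO (0.0351) and did not under Stc1-KO (0.274). Without WT replicate 1 those 2 calls were lost (adjusted p = 0.302 and 0.326), as they were without WT replicate 2 (0.332 and 0.356) and without either library of their own label or, for Pygo1-KO, of Rlim-KO (0.0820 and 0.0898 for Pygo1-KO, 0.266 and 0.328 for Rlim-KO).

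The remaining targets did not pass in any comparison. Myc, the growth-promoting transcription factor, had 84.1 and 74.3 CPM under the Stc1-KO label, 80.1 and 95.1 under Pygo1-KO, 59.9 and 60.6 under Rlim-KO, and 71.2 and 77.1 in WT. The Rlim-KO pair was below WT, at a log2 difference of -0.30 ± 0.13 (edgeR adjusted p = 0.289). Ccnd1, which encodes cyclin D1, had 434 and 148 CPM under the Stc1-KO label, 204 and 315 under Pygo1-KO, 280 and 300 under Rlim-KO, and 343 and 381 in WT. The Stc1-KO libraries of Ccnd1 lay on both sides of every other library, and the log2 difference was -0.32 with both and 0.26 without replicate 2.

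Wls was the member of the ligand and receptor groups that passed. Wls (Wntless, ENSMUSG00000028173, chr3:159839672-159938664, GRCm38) had 171 and 174 CPM under the Pygo1-KO label, 175 and 157 under Rlim-KO, 88.0 and 92.4 under Stc1-KO, and 101 and 97.96 in WT. The Pygo1-KO and Rlim-KO libraries formed a high group and the Stc1-KO and WT libraries a low one, with no overlap. Wls rose 1.73-fold under Pygo1-KO (log2 0.79 ± 0.11, edgeR adjusted p = 0.0220) and 1.67-fold under Rlim-KO (0.74 ± 0.11, adjusted p = 0.0357), while the Stc1-KO difference was -0.14 ± 0.11 (adjusted p = 0.561). Without WT replicate 1 the 2 calls were lost (adjusted p = 0.250 and 0.326), as without WT replicate 2 (0.283 and 0.369), and either Rlim-KO library left out also ended both, and so did either Pygo1-KO library for the Pygo1-KO call. With each chromosome scaled to WT the Pygo1-KO difference of Wls was 0.64 and its call was lost (adjusted p = 0.0674), while the Rlim-KO difference was 0.84 and its call stood (adjusted p = 0.0450).

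Of the ligands, Wnt5a came nearest to the threshold, with 72.1 and 40.5 CPM under the Pygo1-KO label, 62.3 and 58.6 under Rlim-KO, 37.8 and 41.5 under Stc1-KO, and 29.0 and 27.9 in WT. All 6 mutant-labelled libraries were above WT, at log2 differences of 0.98 ± 0.25 (edgeR adjusted p = 0.0953), 1.09 ± 0.25 (0.0897) and 0.48 ± 0.25 (0.397) for Pygo1-KO, Rlim-KO and Stc1-KO. Wnt7b had 702 and 369 CPM under the Stc1-KO label, 745 and 1022 under Pygo1-KO, 638 and 677 under Rlim-KO, and 738 and 816 in WT. Wnt4 had 64.4 and 118 CPM under the Stc1-KO label, 112 and 76.9 under Pygo1-KO, 92.6 and 92.5 under Rlim-KO, and 98.9 and 103 in WT. The Stc1-KO and Pygo1-KO pairs of Wnt7b and Wnt4 were spread widely, and neither gene passed in any comparison with WT. Without Stc1-KO replicate 2 the Stc1-KO log2 difference was -0.15 for Wnt7b and -0.65 for Wnt4, against -0.54 and -0.14 with it. Wnt9b, which acts in kidney tubule development, had 2 to 14 reads per library.

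The receptors varied little. Fzd1 had 58.2 and 57.7 CPM under the Pygo1-KO label, 44.0 and 33.9 under Stc1-KO, 40.9 and 40.8 under Rlim-KO, and 38.1 and 38.6 in WT. The Pygo1-KO pair stood above every other library, by a log2 difference of 0.60 ± 0.14 from WT that did not pass (edgeR adjusted p = 0.0831). The coreceptor gene Lrp6 had 69.6 and 55.6 CPM under the Pygo1-KO label, 70.8 and 67.4 under Rlim-KO, 98.9 and 80.3 under Stc1-KO, and 86.6 and 80.8 in WT. Both the Pygo1-KO and the Rlim-KO pair of Lrp6 were below WT, by 0.42 ± 0.16 and 0.28 ± 0.16 on the log2 scale (adjusted p = 0.197 and 0.406). Fzd2, Fzd7, Lrp5 and Lgr4 had log2 differences from WT between -0.33 and 0.26 under the 3 labels, and none passed.

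Among the intracellular components none passed under any label. Apc, which holds beta-catenin in the destruction complex, had 32.8 and 25.2 CPM under the Pygo1-KO label, 43.6 and 34.7 under Stc1-KO, 44.5 and 38.4 under Rlim-KO, and 45.8 and 40.1 in WT. Its Pygo1-KO difference of -0.57 ± 0.18 on the log2 scale was the furthest from 0 of the 6 genes (edgeR adjusted p = 0.152). Axin1, which unlike Axin2 is not a common Wnt target, had 148 and 164 CPM under the Stc1-KO label, 144 and 127 under Pygo1-KO, 165 and 178 under Rlim-KO, and 143 and 150 in WT. The kinase gene Gsk3b and the Dishevelled genes Dvl1, Dvl2 and Dvl3 had log2 differences from WT between -0.29 and 0.24.

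Sfrp1, a secreted Frizzled-related protein that binds Wnt ligands (ENSMUSG00000031548, chr8:23411502-23449632, GRCm38), had the widest spread of any well-expressed member. It had 543 and 188 CPM under the Pygo1-KO label, 215 and 211 under Rlim-KO, 16.8 and 3.66 under Stc1-KO, and 123 and 117 in WT. Both Stc1-KO libraries were below every other library, and both Pygo1-KO and both Rlim-KO libraries were above WT. Against WT the log2 differences were -3.55 ± 0.77 under Stc1-KO (edgeR adjusted p = 0.109), 1.601 ± 0.70 under Pygo1-KO (0.259) and 0.82 ± 0.69 under Rlim-KO (0.588). Without Stc1-KO replicate 2 the Stc1-KO difference was -2.84, and without replicate 1 it was -5.04. Dkk3, a Dickkopf relative not known to bind LRP6, had 23.4 and 37.7 CPM under the Stc1-KO label, 23.9 and 78.5 under Pygo1-KO, 26.7 and 24.7 under Rlim-KO, and 47.1 and 45.7 in WT, and did not pass. Sfrp2, a relative of Sfrp1, had 0 to 13 reads per library and did not pass.

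Counted over the set, 1 of 32 members passed higher in Stc1-KO against WT (Fosl1), where 0.286% of all genes tested passed higher and 0.291% lower. In Pygo1-KO against WT 4 members passed higher (Notum, Fosl1, Ascl2 and Wls), where 1.54% of all genes passed higher and 0.807% lower. In Rlim-KO against WT the same 4 genes passed higher, where 0.785% of all genes passed higher and 0.617% lower. No member passed lower by edgeR in any of the 3 comparisons, which share their WT libraries. At an unadjusted p under 0.05, 1 was lower under Stc1-KO (Sfrp1), 2 under Pygo1-KO (Lrp6 and Apc) and 1 under Rlim-KO (Dvl1), and DESeq2 called 1 of these, Sfrp1. Over all genes 7.56%, 9.37% and 9.09% were lower at that unadjusted threshold. Of the 8 feedback targets Notum alone passed by edgeR, and of the 11 ligand and receptor genes Wls alone. Under Stc1-KO no feedback target passed by edgeR, while 5 had an unadjusted p under 0.05 (Axin2, Notum, Nkd1, Rnf43 and Lgr5), where 2862 of the 17839 genes tested had one. DESeq2 called 6, 7 and 6 members for Stc1-KO, Pygo1-KO and Rlim-KO, where it called 6.13%, 9.96% and 8.28% of all genes to which it gave an adjusted p. It added Axin2, Nkd1, Notum, Rnf43 and Sfrp1 under Stc1-KO. Under Pygo1-KO it added Axin2, the receptor gene Fzd1 and the ligand gene Wnt5a, and under Rlim-KO Rnf43 and Wnt5a.

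Set side by side, the feedback targets had a median log2 difference from WT of 1.56 under Stc1-KO, 0.23 under Pygo1-KO and 0.59 under Rlim-KO. The 11 ligand and receptor genes had medians of -0.02, 0.11 and 0.09, and the medians over all genes tested were 0.01, -0.00 and 0.01. For the feedback targets under Stc1-KO the median was 0.82 without replicate 2 and 1.96 without replicate 1. As for overlap with WT, 5 of the 8 feedback targets had both Stc1-KO libraries above both WT libraries and 0 had both below. All genes tested gave 22.2% above and 22.2% below for that label. Under Pygo1-KO 4 feedback targets were above and 2 below, with 29.6% and 31.0% of all genes. Under Rlim-KO 5 were above and 3 below, with 35.7% and 35.6% of all genes. The ligand and receptor genes gave 2 above and 3 below of 11 under Stc1-KO, 4 and 3 under Pygo1-KO, and 6 and 4 under Rlim-KO. No test of the feedback targets as a group was made, and the difference between them and the ligand and receptor genes was not tested.

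**Figure D4:**
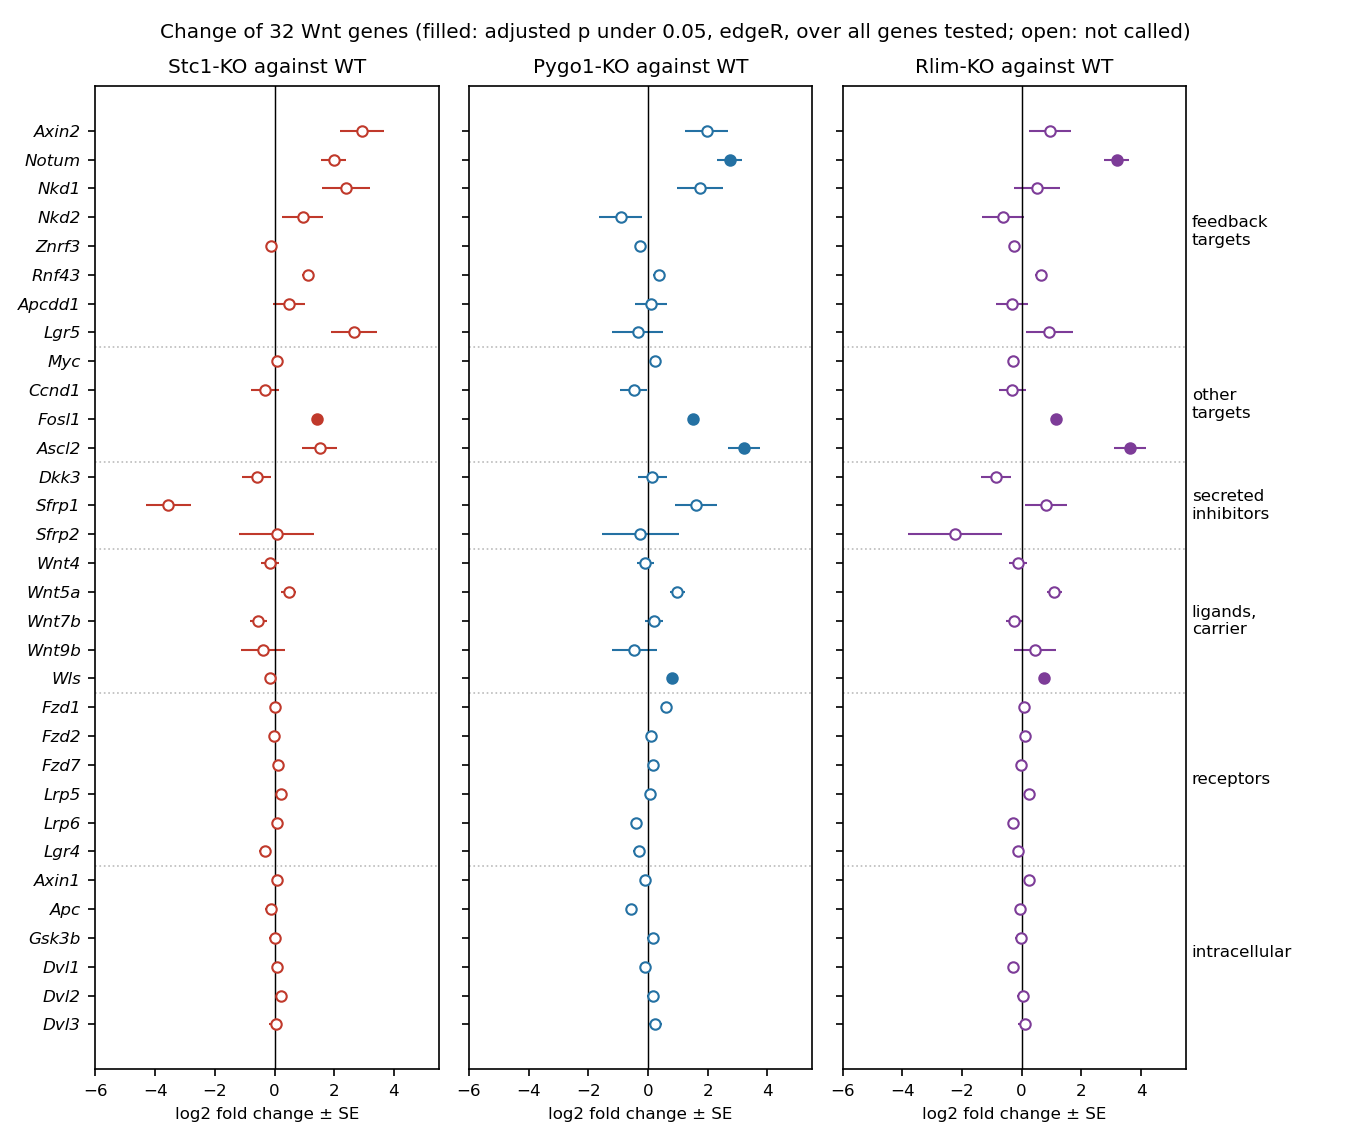
Log2 fold change against WT with its SE for the 32 members tested, by mutant label and ordered by role; filled points passed edgeR's test at an adjusted p under 0.05 over all genes. Filled points are Fosl1 in all 3 panels and Notum, Ascl2 and Wls under Pygo1-KO and Rlim-KO, and the receptors and intracellular genes cluster around 0.

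The mutant labels were also compared with each other, which tests whether their differences from WT differ. In Pygo1-KO against Stc1-KO 2 members passed higher, where 1.23% of all genes tested passed higher and 0.510% lower. These were Sfrp1, 35.6-fold higher (log2 5.16 ± 0.82, edgeR adjusted p = 0.0378), and Wls, 1.91-fold higher (0.93 ± 0.11, adjusted p = 0.0152). In Stc1-KO against Rlim-KO Wls passed lower by 0.88 ± 0.11 on the log2 scale (adjusted p = 0.0402), where 0.112% of all genes passed higher and 0.269% lower. No member passed in Pygo1-KO against Rlim-KO by edgeR, where 0.583% of all genes passed higher and 0.437% lower: 5 members had an unadjusted p under 0.05, where 16.2% of all genes had one, and DESeq2 called 2, Fzd1 and Myc, and 6.41% of all genes. The feedback targets did not pass between labels by edgeR. At an unadjusted p under 0.05 they numbered 5 in Stc1-KO against Rlim-KO, 0 in Pygo1-KO against Rlim-KO and 3 in Pygo1-KO against Stc1-KO, and DESeq2 called 1, 0 and 2 of them. Over all genes 14.9%, 16.2% and 17.4% had an unadjusted p under 0.05, and DESeq2 called 5.53%, 6.41% and 7.47%. Each of the Wls calls was lost without either WT library, although these libraries enter only through the shared estimate of spread (adjusted p = 0.178 without either for Stc1-KO against Rlim-KO, and 0.0812 and 0.0813 for Pygo1-KO against Stc1-KO), and without either Rlim-KO library. With each chromosome scaled to WT both Wls calls stood, at -1.06 (adjusted p = 0.0423) and 0.86 (0.0416). The Sfrp1 call was lost without any 1 of the WT, Pygo1-KO or Rlim-KO libraries, with log2 values of 4.19 to 6.64 over all alternatives and 4.44 without Stc1-KO replicate 2.

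Of 110 further Wnt pathway genes, 86 were tested. In Stc1-KO against WT 1 passed higher, where 0.286% of all genes passed higher and 0.291% lower. In Pygo1-KO against WT 3 passed higher and 1 lower, where 1.54% and 0.807% of all genes did. In Rlim-KO against WT 1 passed higher and 1 lower, where 0.785% and 0.617% of all genes did. The median log2 differences of the 86 genes were 0.04, 0.09 and 0.10, close to 0 as over all genes. Those that passed against WT were 5 reported targets or receptors and 1 ligand, given next, and none of these calls against WT stood without either WT library. The 13 nuclear effectors had no call by edgeR, with 4, 3 and 1 at an unadjusted p under 0.05 and 1, 0 and 1 called by DESeq2 for Stc1-KO, Pygo1-KO and Rlim-KO, where 2862 of the 17839 genes tested had such an unadjusted p under Stc1-KO, 20.6% under Pygo1-KO and 17.9% under Rlim-KO.

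Id2, an inhibitor of helix-loop-helix factors, had 40.2 and 36.2 CPM under the Stc1-KO label, 39.0 and 36.4 under Rlim-KO, 21.8 and 19.997 under Pygo1-KO, and 19.99 and 20.1 in WT. It rose under Stc1-KO (log2 0.93 ± 0.12, edgeR adjusted p = 0.0341) and under Rlim-KO (0.91 ± 0.12, adjusted p = 0.0278). Id2 was lower in Pygo1-KO than in Stc1-KO (-0.87, adjusted p = 0.0252) and than in Rlim-KO (-0.85, adjusted p = 0.0357). Edn1, which encodes the peptide endothelin-1, had 70.9 and 55.7 CPM under the Pygo1-KO label against 30.7 and 29.8 in WT and rose 2.09-fold (log2 1.07 ± 0.14, adjusted p = 0.0203). Fn1, which encodes the matrix protein fibronectin, had 3808 and 4562 CPM under the Pygo1-KO label, 3966 and 4536 under Stc1-KO, 1545 and 1593 under Rlim-KO, and 2230 and 2343 in WT. Fn1 rose under Pygo1-KO (0.87 ± 0.15, adjusted p = 0.0413), and it was 2.67-fold higher in Pygo1-KO than in Rlim-KO (adjusted p = 0.0175) and 2.71-fold higher in Stc1-KO than in Rlim-KO (adjusted p = 0.0271).

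Ephb2, a receptor tyrosine kinase, had 23.1 and 23.5 CPM under the Pygo1-KO label against 49.0 and 49.2 in WT and fell by 1.07 ± 0.20 on the log2 scale (edgeR adjusted p = 0.0464). Kremen1, a receptor for Dickkopf proteins, had 198 and 205 CPM under the Rlim-KO label against 317 and 341 in WT and fell by 0.71 ± 0.12 on the log2 scale (adjusted p = 0.0464). The ligand gene Wnt1 had 31 and 31 reads under the Pygo1-KO label against 3 and 2 in WT, a ratio of 12.8 with a 95% exact interval of 5.19 to 40.7 (adjusted p = 0.0193). Between labels, Tiam1, a Rac activator, was 1.79-fold higher in Pygo1-KO than in Stc1-KO and Cd44, a hyaluronan receptor, 1.77-fold higher in Pygo1-KO than in Rlim-KO (adjusted p = 0.0459 and 0.0312). Edn1 was 2.59-fold higher in Pygo1-KO than in Stc1-KO (adjusted p = 0.0129). Over 14 alternatives the Pygo1-KO calls of Ephb2 and Fn1 against WT each held in 6, and were lost with each chromosome scaled to WT, with the replicate block and without any 1 of the WT, Pygo1-KO or Rlim-KO libraries. The call of Tiam1 held in 6 of 14 alternatives (adjusted p up to 0.501) and that of Cd44 in 8 (up to 0.445). The other calls of these further genes held in 6 to 10 of 14 alternatives, and every one of them was lost without either WT or either Rlim-KO library.

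Because the cells are hybrid, reads over bases at which the parents differ were also counted by genome. Of the 32 members, 27 had at least 20 such reads in every library. In WT the genome 1 share, pooled over both libraries, was over 90% in 2 of the 27, under 10% in 6, and between 20 and 80% in 13. Nkd1 read almost wholly from genome 1, at 97.2 to 100% in all 8 libraries. The median genome 1 share of the 10 nearest genes with enough reads was 53.1 to 75.0% around Nkd1. Axin2, Znrf3, Rnf43 and Fzd2 read almost wholly from genome 2, with genome 1 shares of 0.147 to 2.93% for Axin2, 1.82 to 2.89% for Znrf3, 0.198 to 2.03% for Rnf43 and at most 0.724% for Fzd2. These 4 genes lie on chromosome 11, and the 10 nearest genes with enough reads had median shares of 0.0709 to 1.65% around Axin2. The higher Axin2 level in Stc1-KO replicate 2 was thus RNA of genome 2, at 29.6 CPM of genome 2 reads against 4.81 in Stc1-KO replicate 1 and 2.59 and 2.26 in WT.

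The share was tested against WT by edgeR with a library term. In Stc1-KO against WT 1 of the 27 members passed, where 5.53% of all genes tested passed. In Pygo1-KO against WT 5 members passed, where 19.9% of all genes passed, and in Rlim-KO against WT 3 members passed, where 11.9% of all genes passed. The members' counts were thus near the background.

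Lgr4 (ENSMUSG00000050199, chr2:109917647-110014257, GRCm38) had genome 1 shares of 0 and 0% under the Pygo1-KO label, 0.0908 and 0.124% under Stc1-KO, 16.3 and 18.5% under Rlim-KO, and 3.09 and 4.99% in WT. The Pygo1-KO values are 0 of 970 and 0 of 1001 reads, which allow shares of up to 0.309% and 0.300%. The median share of its neighbours was 0.244 and 0.261% under Pygo1-KO, 0.125 and 0.394% under Stc1-KO, 12.7 and 13.0% under Rlim-KO, and 3.04 and 3.22% in WT. Lgr4 passed under all 3 labels, with log2 odds of genome 1 changed by -8.35 ± 0.58 (adjusted p = 0.00141), -5.12 ± 0.42 (0.00801) and 2.35 ± 0.30 (0.0200) for Pygo1-KO, Stc1-KO and Rlim-KO. The first was computed with 0 reads of genome 1, so its size is not a measure. The Stc1-KO call was lost without WT replicate 2 (adjusted p = 0.0532), and the Rlim-KO call without either WT or either Rlim-KO library. As RNA of all reads Lgr4 did not pass under any label, with 21.98 and 15.99 CPM under Stc1-KO, 17.9 and 20.5 under Pygo1-KO, 22.5 and 21.3 under Rlim-KO, and 24.7 and 23.2 in WT.

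Lrp6 (ENSMUSG00000030201, chr6:134446476-134566965, GRCm38) had genome 1 shares of 72.5 and 74.8% under the Pygo1-KO label, 76.2 and 75.6% under Rlim-KO, 50.4 and 44.5% under Stc1-KO, and 49.7 and 50.5% in WT. Its log2 odds changed by 1.48 ± 0.16 under Pygo1-KO (edgeR adjusted p = 0.00285) and 1.65 ± 0.16 under Rlim-KO (0.00651). Reads of genome 2 stood at 9.07 and 6.37 CPM under Pygo1-KO, 7.92 and 7.63 under Rlim-KO, 24.97 and 23.03 under Stc1-KO, and 22.2 and 20.4 in WT. Reads of genome 1 stood at 18.4 to 25.4 CPM in all 8 libraries, so the lower Lrp6 total under Pygo1-KO and Rlim-KO sat in genome 2. The neighbours of Lrp6 moved with it, with median shares of 85.6 and 89.4% under Pygo1-KO, 90.6 and 87.8% under Rlim-KO, 60.2 and 58.0% under Stc1-KO, and 62.0 and 60.6% in WT. Over chromosome 6 the median gene was lower than in WT by 0.33 and 0.32 on the log2 scale in the Pygo1-KO libraries and by 0.34 and 0.37 in the Rlim-KO libraries. It was lower by 0.35 in Stc1-KO replicate 2 as well, where Lrp6 stood at 80.3 CPM and a genome 1 share of 44.5%. With each chromosome scaled to WT the log2 difference of Lrp6 was -0.09 under Pygo1-KO and 0.08 under Rlim-KO. The Rlim-KO call was lost without either WT or either Rlim-KO library, while the Pygo1-KO call stood in every alternative run.

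On chromosome 16, Dvl3 and Gsk3b had lower genome 1 shares under the Pygo1-KO label. Dvl3 had 31.7 and 32.3% under Pygo1-KO, 38.8 and 36.9% under Rlim-KO, 46.2 and 50.7% under Stc1-KO, and 44.3 and 45.0% in WT (Pygo1-KO log2 odds -0.78 ± 0.14, edgeR adjusted p = 0.0161). Gsk3b had 36.7 and 36.8% under Pygo1-KO, 43.1 and 42.5% under Rlim-KO, 49.4 and 54.1% under Stc1-KO, and 48.9 and 47.3% in WT (Pygo1-KO log2 odds -0.67 ± 0.14, adjusted p = 0.0253). The neighbours' medians were lower too, at 32.6 and 34.2% around Dvl3 under Pygo1-KO against 47.5 and 48.9% in WT. Both calls were lost without either WT library, and that of Gsk3b also without either Rlim-KO library. The rise of Wls was RNA of genome 1, with genome 1 shares of 99.2% or more in all 8 libraries, neighbours included. The share of Wls passed under Pygo1-KO and Rlim-KO (adjusted p = 0.0482 and 0.0464), for pooled shares of 99.9% under both labels against 99.4% in WT, and both calls were lost without any 1 of the WT, Stc1-KO or Rlim-KO libraries.

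Lrp5 and Fzd1 differed within the Pygo1-KO pair. Lrp5 had genome 1 shares of 79.0 and 99.9% under Pygo1-KO, 64.1 and 69.5% under Stc1-KO, 63.6 and 63.7% under Rlim-KO, and 61.7 and 61.3% in WT. Fzd1 had 90.6 and 99.9% under Pygo1-KO, 82.9 and 82.5% under Stc1-KO, 87.1 and 87.9% under Rlim-KO, and 81.9 and 81.7% in WT. Their neighbours in Pygo1-KO replicate 2 were at 99.87 and 99.95%, against 85.2 and 80.5% in replicate 1. Neither share passed under Pygo1-KO with both libraries in the fit, and both passed with either Pygo1-KO library left out. Those fits hold 1 Pygo1-KO library and called 4205 genes without replicate 1 and 3254 without replicate 2, against 2489 with both, so no call is read from them. The share of Wnt5a also split in the Pygo1-KO pair, at 99.9 and 69.4%, with its neighbours at 99.8 and 57.9%. It was 70.2 and 83.0% under Stc1-KO, 85.4 and 85.4% under Rlim-KO, and 86.5 and 83.6% in WT. Nkd2, on 26 to 210 genome reads, had 65.4 and 81.8% under Pygo1-KO against 9.52 and 19.8% in WT. Neither share passed under Pygo1-KO (edgeR adjusted p = 0.682 for Wnt5a and 0.143 for Nkd2). Fosl1, on the same chromosome as Lrp5, had genome 1 shares of 61.3 and 75.6% under Stc1-KO, 80.4 and 70.7% under Pygo1-KO, 60.7 and 58.4% under Rlim-KO, and 54.7 and 59.4% in WT. Reads of both genomes of Fosl1 were above WT in all 6 mutant-labelled libraries: 13.95 to 25.4 CPM against 5.37 and 6.55 for genome 1, and 6.04 to 12.3 CPM against 4.44 and 4.49 for genome 2.

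**Figure D5:**
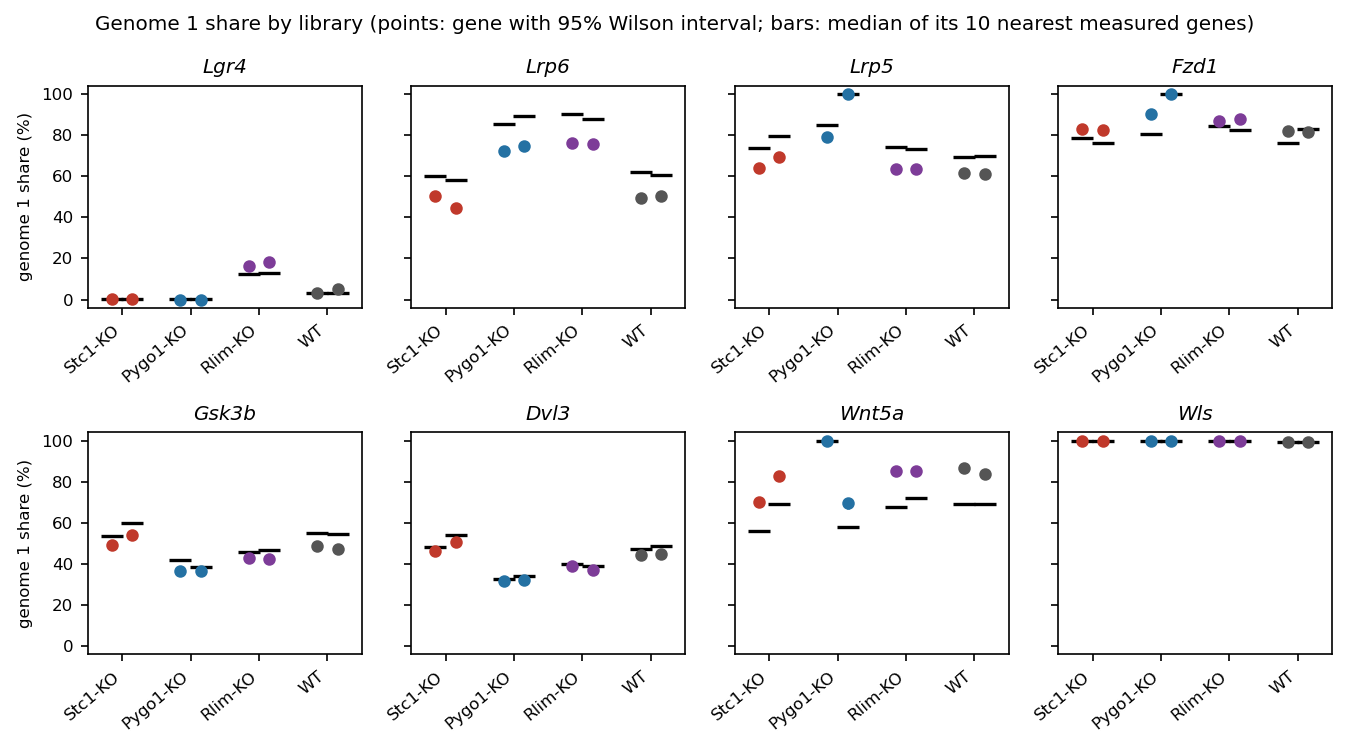
Genome 1 share in percent for 8 members by library, with 95% Wilson intervals that cover counting error only; black bars are the median of the 10 nearest genes with enough reads. The share of Lgr4 is highest under Rlim-KO at 16.3 and 18.5%, that of Lrp6 is above 72% under Pygo1-KO and Rlim-KO and near 50% in WT, and Wls stays at 99.2% or more.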

How the data were processed

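RNA was extracted with Trizol and made into TruSeq libraries sequenced on an Illumina GAIIx, per the labels. The authors deposited raw counts per Ensembl gene, as all reads, genome 1 reads and genome 2 reads for each library. The submitters' processing notes name featureCounts, Cufflinks, HISAT2 2.0.5 and the build mm10, with no role stated. How strands were treated and which tool assigned reads to a genome are not given in the sources used here. Alignment to mm10 may count C57BL/6 reads more readily than SPRET/EiJ reads. Shares were therefore tested as differences from WT, and shares that are given by themselves may carry this bias.

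Symbols, exon lengths and coordinates came from GENCODE M21 (GRCm38), which matched 49411 of the 49670 genes. The members and gene lists were chosen with earlier results of these data known. edgeR 4.0.16 (with limma 3.58.1, in R 4.3.3) was run on the counts with TMM scaling, filterByExpr and a quasi-likelihood model over all 8 libraries (common coefficient of variation 24.6%, prior degrees of freedom 2.94). Genes were called at a Benjamini-Hochberg adjusted p under 0.05 over 17839 genes. SE is the log2 fold change divided by the root of F. Genome counts were fitted with a term per library and a genome term per group over 12486 genes with at least 20 genome reads in every library. The labels do not say that libraries of a group are separate cultures beyond the mutants, so p-values measure the spread between these libraries, which may be technical. Replicate numbers name samples and did not pair them.

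Every member was accounted for. Given by library were the members called in any of the 6 comparisons and the feedback targets, then up to 3 called genes per list and comparison from the other pathway lists, and the targeted genes. Other members given by library, Lef1, Rspo3 and the overlapping Ccdc85b were chosen after their values were seen. The alternatives were another scaling, no filter, DESeq2 1.42.0, the compared groups alone, a replicate term, each chromosome scaled to WT, other limits on genome reads, and each library left out in turn. Leaving Stc1-KO replicate 1 or 2 out of the spread and medians of the lists, and of the differences of genes outside the feedback targets and called genes, was chosen after the data were seen.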

Additional observations from a re-analysis of the deposited data

Results flagged for a closer look

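Members whose difference from WT differed between mutant labels, by the test of that difference in edgeR, came up 3 times. The log2 difference of Wls was -0.88 in Stc1-KO against Rlim-KO, and 0.93 in Pygo1-KO against Stc1-KO, with the Stc1-KO libraries at 88.0 and 92.4 CPM and the other mutant-labelled libraries at 157 to 175 CPM. The log2 difference of Sfrp1 was 5.16 in Pygo1-KO against Stc1-KO, with 543 and 188 CPM against 16.8 and 3.66 CPM. Groups of 2 are too small for a check of single outlying libraries.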

How the results depend on the processing

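The number of members called moved with the tool and the libraries, while the direction of every called member was kept under the alternatives run. For Stc1-KO against WT it was 1 by edgeR, 5 without the filter, 6 by DESeq2, 0 with the compared groups alone and 0 with the replicate block, and 0 to 13 with a library left out. For Pygo1-KO against WT it was 4 by edgeR, 7 by DESeq2 and 1 with the replicate block, and 0 to 12 with a library left out. For Rlim-KO against WT it was 4 by edgeR, 20 with the compared groups alone and 0 with the replicate block, and 0 to 7 with a library left out. Between labels, Stc1-KO against Rlim-KO gave 1 by edgeR, 2 without the filter, 3 by DESeq2, 0 with the compared groups alone and 0 with the replicate block. Over all genes these alternatives called 1.13%, 5.53%, 0.0673% and 0.0392% in that order. Pygo1-KO against Rlim-KO gave 0 by edgeR, 2 by DESeq2 and 2 with the compared groups alone, where these alternatives called 6.41% and 5.43% of all genes. Pygo1-KO against Stc1-KO gave 2 by edgeR, 5 by DESeq2, 0 with the compared groups alone, 1 with the replicate block and 0 to 10 with a library left out. These counts move with those over all genes: in Stc1-KO against WT 1.23% of all genes were called without the filter, 0.0224% with the compared groups alone and 0.0168 to 25.3% with a library left out. In Pygo1-KO against WT it was 0.0448 to 20.7% with a library left out. In Rlim-KO against WT it was 47.1% with the compared groups alone, 0.146% with the replicate block and 0.0168 to 17.2% with a library left out. No member was called in any comparison without either WT library, which leaves a lone WT sample assumed to vary like the other groups.

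Over all genes, the number called in Stc1-KO, Pygo1-KO and Rlim-KO against WT was 103, 419 and 250 by edgeR, and 967, 1707 and 1419 by DESeq2. Replicate numbers did not pair the samples: deviations of same-numbered libraries correlated at -0.16 between Stc1-KO and Pygo1-KO and at 0.0005 to 0.0443 between the other groups. The count of changed genome shares ran from 0 to 2 for Stc1-KO (1 with all libraries), 2 to 11 for Pygo1-KO (5) and 0 to 4 for Rlim-KO (3) when a library was left out. These counts too moved with those over all genes, of which 5.53%, 19.9% and 11.9% were called with all libraries. For each label the fit that called the fewest of all genes gave the lowest member count. The fit that called the most gave the highest, so these ranges are not particular to the members.

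Signs reversed for differences that had not passed. With a library left out, Stc1-KO against WT ran from -0.60 to 1.67 for Nkd2, -0.23 to 0.0019 for Znrf3, -0.83 to 1.17 for Apcdd1, -0.46 to 2.10 for Pygo1 and -0.68 to 0.48 for Rlim, the low or sign-changed end of each without Stc1-KO replicate 2. Without the filter Rlim was at -0.012 there. Signs in Stc1-KO against WT also reversed for members of other roles when a Stc1-KO library was left out. Without replicate 1 and without replicate 2 the values were 0.23 and -0.65 for Wnt4 and -1.29 and 0.26 for Ccnd1. Fzd7 was at 0.25 and -0.068 and Dvl2 at 0.51 and -0.16, and these are examples. Pygo1-KO against WT ran from -0.00080 to 0.19 for Apcdd1, -0.99 to 0.29 for Lgr5 and -1.87 to 0.023 for Pygo1, and with each chromosome scaled to WT Rlim was at 0.20. The cause of these changes was not tested. Depth limits Ascl2, Notum, Lgr5, Sfrp2, Wnt9b, Sp5, Dkk1 and Dkk2, and 2 libraries a group limit the rest.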

Other observations

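The 13 nuclear effectors tested had a median log2 difference from WT of 0.34 under Stc1-KO, 0.07 under Pygo1-KO and 0.16 under Rlim-KO, with 12, 8 and 11 of 13 above 0, beside medians over all genes of 0.01, -0.00 and 0.01. Without Stc1-KO replicate 2 the Stc1-KO median was 0.18 with 8 of 13 above 0. The list was not tested as a group. The epithelial adhesion gene Cdh1, whose product binds beta-catenin at the membrane, had 0.201 and 0.344 CPM under Pygo1-KO, 0.498 and 0.514 under Rlim-KO, 20.1 and 6.36 under Stc1-KO, and 9.52 and 8.91 in WT. Of the 7 epithelial markers tested against WT, Cdh1 alone passed, under Pygo1-KO and Rlim-KO, and 3 and 5 of the 7 were above 0 there: under Rlim-KO the log2 differences were 1.52 for Epcam, 0.65 for Krt7, 0.41 for Krt8, 1.14 for Krt18 and 0.43 for Ocln, and none of these passed.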
